A study of Mus musculus with 194 samples.

Results

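The dorsal striatum (DS) of mice 2 and 4 hr after the last of a series of daily cocaine injections is described here, each time point against mice of the same treatment taken at 0 hr. Libraries were taken by their labels: DS, repeated cocaine (written chronic in the labels), with the libraries of one further sequencing run set aside because they are repeat libraries of mice already present. This left 9 libraries at 2 and 4 hr (5 mice at 2 hr and 4 mice at 4 hr) of 194 in the series, compared with 4 mice at 0 hr and with 4 mice at 1 hr. The animals were young male wild-type C57BL/6OLAHSD mice that were handled, habituated to daily saline injections and then given cocaine intraperitoneally once a day. Mice at 1, 2 and 4 hr were taken after the fifth daily dose, and mice at 0 hr were taken from the home cage 1 day after the fourth dose, so every group described, the 0 hr group included, had cocaine on earlier days and none was drug naive. No saline-injected mice of this treatment were analysed here, so cocaine, injection and handling on the last day, and time of day, cannot be told apart. The mice came from 2 cohorts, exp16 and exp17, with 2 mice of each at 0, 1 and 4 hr and 3 and 2 at 2 hr, and the cohort was a term in the fit.

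The dorsal striatum consists mostly of GABAergic projection neurons that receive dopamine and glutamate. Cocaine blocks the dopamine transporter, and the resulting rise in dopamine, with glutamate, activates kinase pathways in these neurons that switch on rapid response genes within minutes. These genes encode transcription factors of the Fos, Egr and Nr4a families and phosphatases that shut the kinases off, and their transcripts are short-lived. Genes that peak hours later are called late and include secreted and synaptic proteins. Circulating glucocorticoid hormone, which rises with stress, psychostimulants and the active phase of the day, acts on a different set of genes through the glucocorticoid receptor.

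The libraries held 2460920 to 4011041 counts each (median 3158604), and 12211 genes passed the filter on low counts. Projection neuron markers (10 measured, among them Drd1, Drd2 and Ppp1r1b) summed to between 13975 and 17239 CPM, the counts scaled to library size, in every library, whereas cortical excitatory neuron markers (8 genes) summed to 16.5 to 49.7 CPM. These markers set striatal tissue apart from cortex, but projection neurons of the nucleus accumbens share them, so they do not check the dorsal label. No marker gene of projection neurons, interneurons, cortical or thalamic neurons, glia, vessels, ependyma or blood passed the test at 2 or 4 hr. In such bulk tissue fewer cells expressing a gene and less RNA per cell cannot be told apart. A gene was called when its Benjamini-Hochberg adjusted p in the quasi-likelihood test of edgeR was under 0.05 and its fold change was over 1.2, and changes are given as log2 fold changes (log2FC) ± SE.

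Rapid response genes, most of them transcription factors, made up 11 of the 22 genes higher at 2 hr than at 0 hr. Of all genes tested, 22 were higher (0.18%) and 1 was lower (0.00819%) than at 0 hr. DESeq2 called 13 and 1, and of the genes higher in edgeR it did not call Egr1, Irs2, Klf4, Midn, Nptx2, Nr4a1, Peli1, Rgs2 and Rnd3. Of the 36 rapid response genes tested, 11 were higher and none lower, with a median log2FC of 0.34 against -0.00081 over all genes. Of the 34 delayed and secondary activity genes tested, 5 were higher at 2 hr, while 6 had already been higher at 1 hr. The median log2FC of that list was 0.16, 0.24 and 0.16 at 1, 2 and 4 hr. The largest increases were those of Nr4a3 and Klf4, followed by Fosb, Fosl2 and Egr4.

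Nr4a3, an orphan nuclear receptor, stood at 9.78, 17.5, 5.39 and 10.04 CPM in the 0 hr mice and at 67.0, 81.3, 65.5, 72.4 and 32.8 CPM in the 2 hr mice. Every 2 hr mouse was above every 0 hr mouse, and the change was a log2FC of 2.58 ± 0.23 (adjusted p = 2.7e-11). At 4 hr the mice stood at 14.7, 16.9, 7.80 and 21.4 CPM, overlapping the 0 hr mice. Nr4a1, a receptor of the same family, had a log2FC of 0.98 ± 0.17 at 2 hr (adjusted p = 0.00083), and its groups overlapped.

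Among the factors of the Fos family, which pair with Jun proteins to form AP-1, Fosb stood at 9.15, 8.40, 5.39 and 7.17 CPM at 0 hr and at 26.3, 28.8, 16.9, 28.6 and 14.2 CPM at 2 hr. These groups did not overlap, with a log2FC of 1.64 ± 0.23 (adjusted p = 1.1e-05). At 4 hr Fosb stood at 12.5, 12.8, 19.2 and 18.2 CPM, all above the 0 hr mice, but the log2FC of 1.06 ± 0.25 did not pass the test over all genes (adjusted p = 0.12). Fosl2 (encoding Fra-2) had the same log2FC of 1.64 ± 0.21 at 2 hr (adjusted p = 9.1e-07) and 0.17 ± 0.25 at 4 hr. Fos itself, at 45.8 to 62.2 CPM in the 1 hr mice, was back at 4.26 to 13.2 CPM in the 2 hr mice, which overlapped the 2.53 to 10.04 CPM of the 0 hr mice.

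Of the Egr zinc-finger factors, Egr4 stood at 46.7, 64.8, 41.5 and 60.3 CPM at 0 hr and at 146, 162, 175, 158 and 80.8 CPM at 2 hr, with no overlap and a log2FC of 1.43 ± 0.14 (adjusted p = 6.2e-10). Egr2 and Egr1 were also called at 2 hr, with log2FCs of 1.33 ± 0.22 and 0.80 ± 0.13, but their groups overlapped. Egr3 had a log2FC of 0.22 at 2 hr and was not called.

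Some negative regulators of signalling were still called higher at 2 hr. Others called at 1 hr were not, among them Dusp1 and Dusp5, which fell from 1 to 2 hr by log2FCs of -1.55 and -1.38. Dusp14, a dual-specificity phosphatase, stood at 77.3, 112, 97.4 and 106 CPM at 0 hr and at 249, 252, 271, 233 and 135 CPM at 2 hr. No 2 hr mouse overlapped the 0 hr mice, and the log2FC of 1.19 ± 0.12 (adjusted p = 3.2e-10) lay beside one of 1.09 at 1 hr. In the repeat libraries of the exp17 mice Dusp14 did not separate 2 from 0 hr, with means of 155 and 101 CPM. Nr4a3, Fosb, Fosl2, Egr4 and Jarid2 did separate them there. Rgs2, which speeds the shut-off of G-protein signals, had a log2FC of 0.46 ± 0.09 (adjusted p = 0.0027), and Rnd3, a small GTP-binding protein that loosens the actin cytoskeleton, one of 0.87 ± 0.20 (adjusted p = 0.040). Both had been higher at 1 hr, at log2FCs of 0.87 and 1.72. Apart from these regulators, Arhgef3, a guanine nucleotide exchange factor, had a log2FC of 0.47 ± 0.11 (adjusted p = 0.030), after 0.12 at 1 hr.

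**Figure D1:**
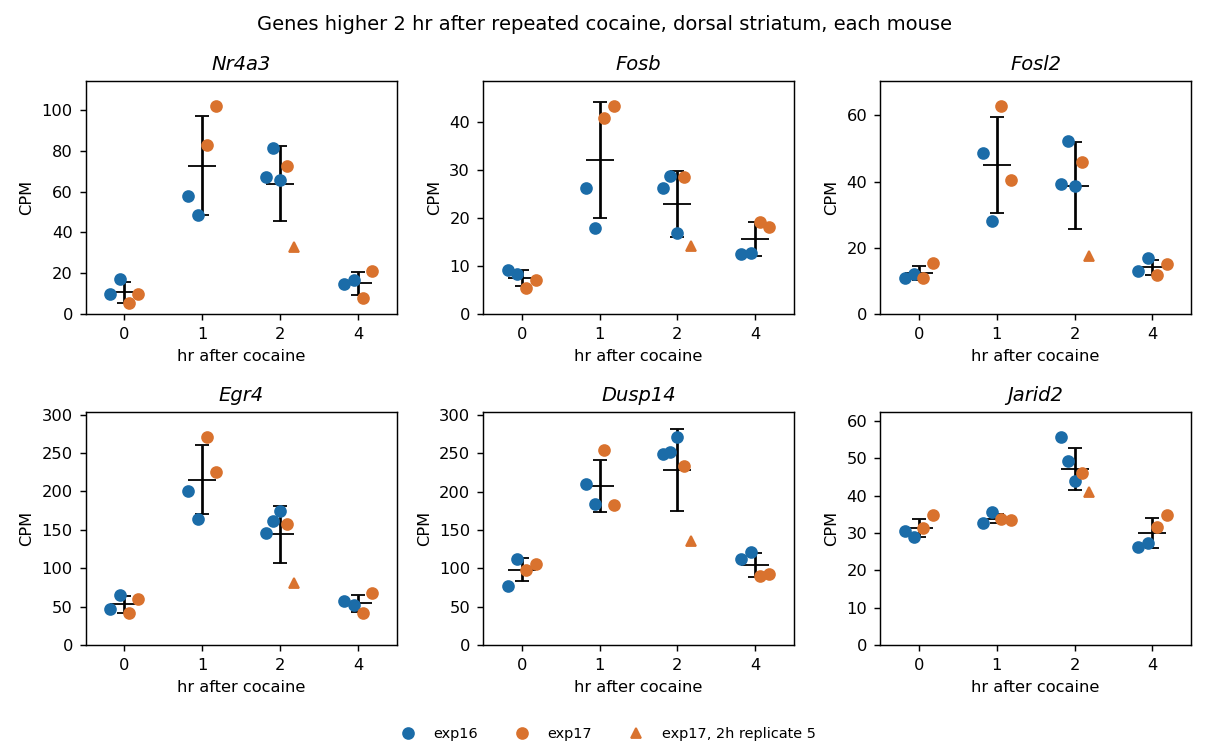
CPM of 6 genes called higher at 2 hr in each mouse of the 0, 1, 2 and 4 hr groups (points, colored by cohort), with the group mean and SD (black). The triangle is the fifth 2 hr mouse, which is the lowest 2 hr mouse for all 6 genes, and every 2 hr mouse lies above every 0 hr mouse.

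Of the 42 genes higher at 1 hr than at 0 hr (0.344% of genes tested, with 7 or 0.0573% lower), 15 were called higher at 2 hr as well. Over the 42 genes, which were chosen by their 1 hr level, the median log2FC against 0 hr was 1.01 at 1 hr, 0.43 at 2 hr and 0.07 at 4 hr. These medians are a description. The decline was tested directly between times. From 1 to 2 hr 29 genes were lower (0.237%) and 4 were higher (0.0328%), the largest declines being those of Fos (log2FC -2.55), Arc (-2.05) and Junb (-1.96). Arc, which encodes a synaptic protein involved in receptor uptake, stood at 374 to 467 CPM at 1 hr, 62.9 to 153 CPM at 2 hr and 51.2 to 123 CPM at 4 hr. From 1 to 4 hr 52 genes were lower (0.426%) and 35 were higher (0.287%), and 23 of the 36 rapid response genes tested were among the lower. From 2 to 4 hr 21 genes were lower (0.172%) and 6 were higher (0.0491%), and the 21 held 15 of the 22 genes called higher at 2 hr. These 22 were chosen by their 2 hr level, so that last count is a description. The 33 calls between 1 and 2 hr became 20 without the fourth 2 hr mouse, the 87 between 1 and 4 hr became 52 without the first 4 hr mouse, and the 27 between 2 and 4 hr became 15, 16 and 44 without the second, the third and the fifth 2 hr mouse and 15 without the second 4 hr mouse.

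Genes were called late here when their change from 0 hr was larger at the time of the call than at 1 hr. Of the 26 genes called at 2 or 4 hr, 13 met this: 9 higher at 2 hr, 1 lower at 2 hr and 3 higher at 4 hr. None of the 13 was also called against 1 hr at that time by edgeR or DESeq2. In edgeR 8 of them differed from 1 hr in that direction at an unadjusted p under 0.05, among them Arhgef3, Jarid2, Nptx2, Pdp1 and Tlnrd1 at 2 hr and Ddit4 and Sgk1 at 4 hr. In the 17 fits that each left out 1 mouse, the 2 hr call was lost in 8 for Nptx2 and Rnd3, 7 for Klf4, 6 for Midn and Tlnrd1, 5 for Arhgef3 and Pdp1, 4 for Irs2 and Jarid2, 3 for R3hdm1 and 1 for Peli1 and Rgs2. The number of late genes depended on single mice. It was 4 without the first and 6 without the third 0 hr mouse, and it was 7, 8 and 35 without the third, the fourth and the fifth 2 hr mouse.

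Jarid2, which encodes a cofactor of the Polycomb repressive complex PRC2, separated the 2 hr mice from those of every other time. It stood at 30.6, 28.9, 31.4 and 34.7 CPM at 0 hr, at 32.7, 35.5, 33.7 and 33.3 CPM at 1 hr, at 55.7, 49.3, 44.0, 46.1 and 40.9 CPM at 2 hr and at 26.1, 27.3, 31.7 and 34.8 CPM at 4 hr. All 2 hr mice lay above all mice of the other times. The log2FC was 0.59 ± 0.12 at 2 hr (adjusted p = 0.010) against 0.10 at 1 hr and -0.06 at 4 hr, and Jarid2 was lower at 4 hr than at 2 hr (log2FC -0.64, adjusted p = 0.0031).

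Nptx2, a secreted neuronal pentraxin that gathers AMPA receptors at synapses, stood at 26.8, 20.5, 27.6 and 34.4 CPM at 0 hr and at 46.8, 47.3, 48.7, 54.6 and 28.5 CPM at 2 hr. The fifth 2 hr mouse lay among the 0 hr mice. The log2FC was 0.73 ± 0.17 (adjusted p = 0.040) against 0.29 at 1 hr. Klf4, a zinc-finger factor, was counted only 2 to 4 times per library at 0 hr and 5 to 19 times at 2 hr, and had a log2FC of 2.12 ± 0.48 (adjusted p = 0.032).

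Among the late genes of 2 hr, Irs2, an adaptor of insulin and IGF receptors, had a log2FC of 0.68 ± 0.14 (adjusted p = 0.0087) and Peli1, an E3 ubiquitin ligase of innate immune signalling, one of 0.63 ± 0.11 (adjusted p = 0.0011). Both were lower again at 4 hr than at 2 hr, by log2FCs of -0.61 and -0.74. At 1 hr Irs2 had a log2FC of 0.63 and was already called higher (adjusted p = 0.019), and Peli1 had one of 0.43. Tlnrd1, a relative of the talin rod, had a log2FC of 0.46 and Pdp1, the phosphatase that activates pyruvate dehydrogenase, one of 0.39. Of the called genes that were not late, Mest, an imprinted gene, had log2FCs of 0.78, 0.77 and 0.34 at 1, 2 and 4 hr, Dnajb5, a co-chaperone, 0.78, 0.76 and 0.18, Midn 0.98, 0.74 and 0.02, and R3hdm1 0.36, 0.35 and 0.13.

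**Figure D2:**
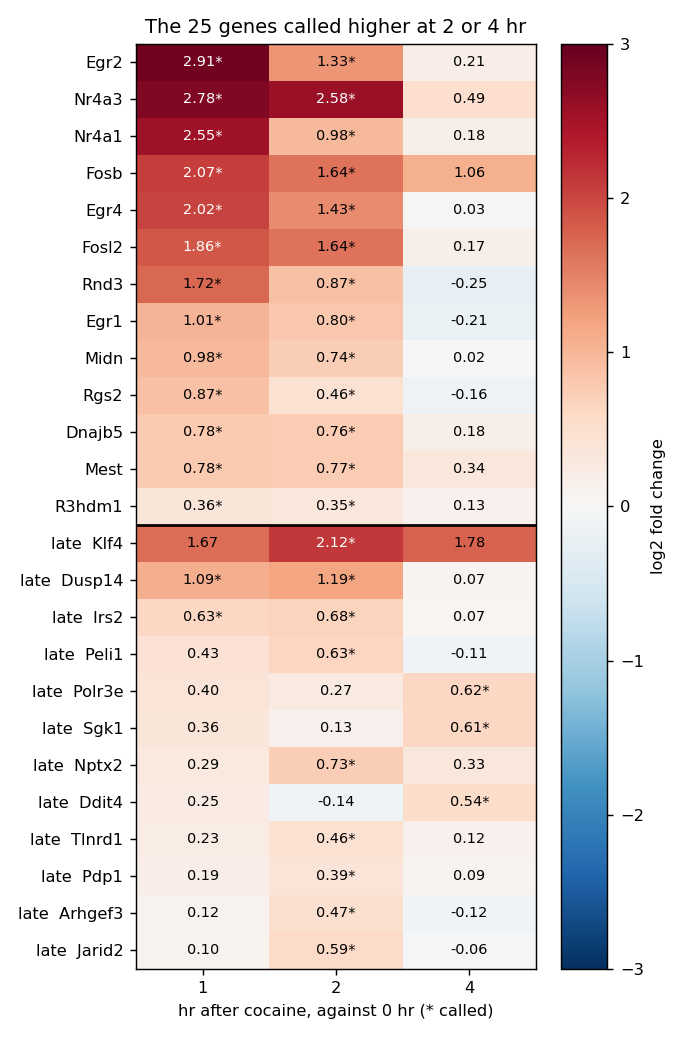
Log2FC against 0 hr (color and number) at 1, 2 and 4 hr for the 25 genes called higher at 2 or 4 hr; asterisks mark calls and the 12 genes below the line are the late ones. Most genes are near 0 at 4 hr, where asterisks mark Polr3e, Sgk1 and Ddit4.

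The fifth 2 hr mouse stood apart from the other 2 hr mice. It was the lowest of the 5 for 19 of the 22 genes higher at 2 hr, and in its repeat library it was below the other exp17 mouse of 2 hr for 21 of the 22. It was the highest 2 hr mouse for Polr3e, Sgk1 and Ddit4, at 80.8, 227 and 67.5 CPM. Its library held 3158604 counts, the median of the 17. Without it 38 genes were higher and 4 lower at 2 hr, 22 of the 23 genes called with all mice among them, and 35 genes were late. Genes gained in this way, and named here after their values were seen, include Shisa2 (log2FC 1.25 without this mouse, 0.92 with it), Sik2, a salt-inducible kinase (1.08 and 0.85), Pfkfb3, a regulator of glycolysis (0.69 and 0.59), and the serotonin receptor gene Htr1b (0.45 and 0.37). Within cohorts all 22 genes were above 0 hr in exp16 and in exp17, with median log2FCs of 0.93 and 0.56. They were called from both cohorts together, so this shared sign is a description. Exp16 alone gave 25 calls at 2 hr and exp17 alone 4. Leaving out the first 0 hr mouse gave 11 calls, the third 0 hr mouse 15 and the third 2 hr mouse 14.

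At 4 hr only Polr3e, Sgk1 and Ddit4 were higher than at 0 hr (3 of the genes tested, 0.0246%), and none was lower (0%). DESeq2 called 3 higher, Ddit4 and Polr3e among them but not Sgk1, and 0 lower, and 265 genes were lower at an unadjusted p under 0.05. No rapid response gene was called at 4 hr, where 22 of the 36 lay above 0 with a median log2FC of 0.08. Sgk1, a kinase that regulates ion channels and transporters, and Ddit4, an inhibitor of mTORC1 also called REDD1, are both textbook glucocorticoid-responsive genes and both belong to the list of such genes used here. Polr3e encodes a subunit of RNA polymerase III, which makes transfer RNAs and other small RNAs.

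Sgk1 stood at 165, 164, 205 and 105 CPM in the 0 hr mice, at 189, 191, 210 and 226 CPM at 1 hr, at 160, 182, 144, 157 and 227 CPM at 2 hr and at 270, 255, 196 and 257 CPM at 4 hr. The groups of 0 and 4 hr overlapped by 1 mouse of each. The log2FC was 0.61 ± 0.11 at 4 hr (adjusted p = 0.024) after 0.36 at 1 hr and 0.13 at 2 hr, and Sgk1 was higher at 4 hr than at 2 hr (log2FC 0.48, adjusted p = 0.024). It was not called at 4 hr when the fourth 0 hr mouse, the lowest, was left out, nor without the first, the second or the fourth 4 hr mouse.

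Ddit4 stood at 51.1, 65.8, 71.7 and 59.7 CPM at 0 hr, at 59.7, 72.4, 85.2 and 77.9 CPM at 1 hr, at 45.4, 54.9, 47.3, 61.3 and 67.5 CPM at 2 hr and at 73.3, 94.6, 85.3 and 109 CPM at 4 hr. No 4 hr mouse overlapped the 0 or 2 hr mice. The log2FC was 0.54 ± 0.11 against 0 hr (adjusted p = 0.029) and 0.68 against 2 hr (adjusted p = 4.4e-05).

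Polr3e stood at 52.1, 54.1, 48.5 and 43.9 CPM at 0 hr and at 65.2, 81.0, 76.3 and 83.2 CPM at 4 hr, without overlap, and its log2FC was 0.62 ± 0.12 (adjusted p = 0.029). At 1 and 2 hr its mice ranged from 51.4 to 81.0 CPM. In the repeat libraries of the exp17 mice Polr3e did not separate the times, at 66.3 and 59.3 CPM at 0 hr and 72.5 and 52.4 CPM at 4 hr. Sgk1 there stood at 191 and 81.9 CPM at 0 hr and at 177 and 265 CPM at 4 hr, and Ddit4 at 95.8 and 78.7 CPM and at 78.4 and 137 CPM. With the repeat libraries added to the same mice's counts, Sgk1 was called at 4 hr and Polr3e and Ddit4 were not.

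The 3 calls at 4 hr rested on few mice. Within exp16 and exp17 the log2FCs were 0.67 and 0.55 for Sgk1, 0.52 and 0.56 for Ddit4 and 0.46 and 0.79 for Polr3e. All lay above 0, which is a description, since the genes were called from both cohorts together. In edgeR only Sgk1 was called in exp16 alone (adjusted p = 0.0028). In exp17 alone the adjusted p were 0.84 (Sgk1), 0.49 (Ddit4) and 0.23 (Polr3e). With no cohort term no gene was called at 4 hr, and leaving out the fourth 0 hr mouse or the second or the fourth 4 hr mouse also left 0 calls. Of the 17 fits that each left out 1 mouse, Sgk1 lost its call in 4, Ddit4 in 5 and Polr3e in 6.

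**Figure D3:**
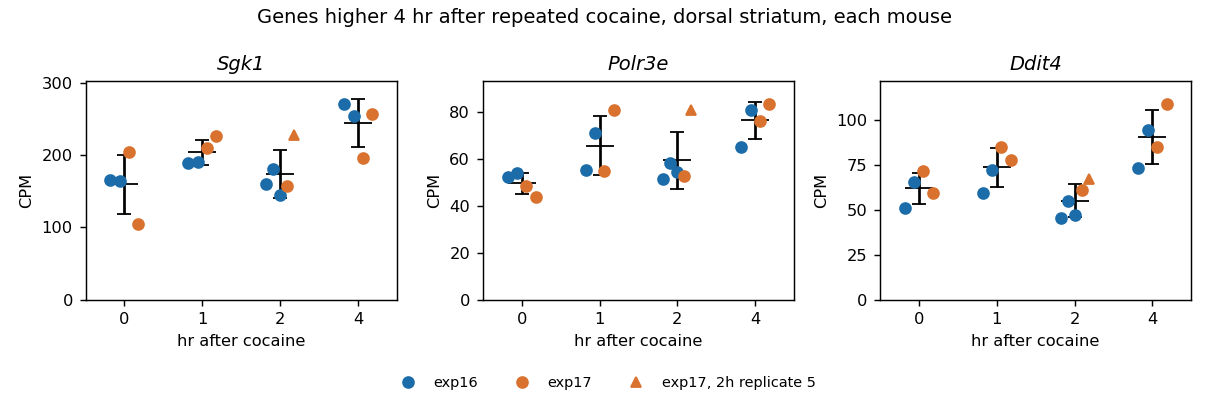
CPM of the 3 genes called at 4 hr in each mouse of the 0, 1, 2 and 4 hr groups (points, colored by cohort; triangle, the fifth 2 hr mouse), with the group mean and SD (black). The 4 hr mice lie above all 0 hr mice for Polr3e and Ddit4 and above 3 of the 4 for Sgk1.

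The promoter windows of these genes, 250 bases before to 50 bases after an annotated start (RefSeq, GRCm38.p6), are shown because they are the only genes called at 4 hr and because both Sgk1 and Ddit4 are known glucocorticoid targets. Capitals mark matches to the palindromic glucocorticoid response element (GNACA and TGTNC, 3 bases apart) and to ACGTG, the core of the hypoxia response element, each searched on both strands. ACGTG lies inside the E-box CACGTG, which therefore matches on both strands. Sgk1 has 6 windows, and the one printed is the one with the most matches.
Sgk1 (chr10:21993640-21993939, + strand): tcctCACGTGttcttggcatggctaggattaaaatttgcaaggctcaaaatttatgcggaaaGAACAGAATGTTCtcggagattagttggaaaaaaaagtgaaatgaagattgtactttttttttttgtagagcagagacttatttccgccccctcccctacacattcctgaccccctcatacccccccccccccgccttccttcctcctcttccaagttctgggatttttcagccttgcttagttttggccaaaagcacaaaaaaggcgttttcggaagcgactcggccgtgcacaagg
Ddit4 (chr10:59951721-59952020, - strand): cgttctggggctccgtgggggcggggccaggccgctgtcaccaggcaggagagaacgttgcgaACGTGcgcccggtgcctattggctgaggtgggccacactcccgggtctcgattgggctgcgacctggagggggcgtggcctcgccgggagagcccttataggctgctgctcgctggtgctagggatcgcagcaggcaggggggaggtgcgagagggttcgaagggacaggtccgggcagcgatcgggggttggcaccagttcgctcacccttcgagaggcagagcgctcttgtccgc
Polr3e (chr7:120917528-120917827, + strand): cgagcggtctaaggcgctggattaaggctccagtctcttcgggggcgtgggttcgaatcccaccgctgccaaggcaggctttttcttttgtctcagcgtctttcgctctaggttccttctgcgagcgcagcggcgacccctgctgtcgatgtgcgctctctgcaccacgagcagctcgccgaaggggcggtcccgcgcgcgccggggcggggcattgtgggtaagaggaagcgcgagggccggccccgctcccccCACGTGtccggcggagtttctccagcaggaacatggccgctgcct
The glucocorticoid response element was found in this Sgk1 window, beginning 188 bases before the start, and in neither other gene. It was present in 0.406% of the tested genes with a window, and ACGTG, present in each of the 3 genes, in 29.6%. Counted over all 8 windows of the 3 genes, the glucocorticoid element was in 12.5% and ACGTG in 37.5%, against 0.337% and 25.1% of the windows of tested genes. Of the 19 genes higher at 2 hr with a window, none held the cAMP response element TGACGTCA, the AP-1 element TGANTCA, the FoxO element GTAAACA or the glucocorticoid element, which were present in 3.73%, 5.92%, 3.04% and 0.406% of the tested genes with a window. At shares this low, finding none among 19 genes does not set them apart from the tested genes. The E-box was present in 4 of the 19 (21.1%) and in 11.8% of the tested genes with a window, or in 12.1% and 9.74% when single windows were counted. A match is a description of the letters in these windows only.

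Glucocorticoid-responsive genes were examined as a list. Of the 34 tested, Sgk1 and Ddit4 were higher at 4 hr (0.0246% of all genes were) and none was lower. Of the 34, 28 lay above 0 (82.4%, against 49.7% of all genes), with a median log2FC of 0.23 against -0.0011 over all genes. Without Sgk1 and Ddit4, 26 of 32 lay above 0 with a median of 0.21. At 2 hr none was called and the median was 0.04, and at 1 hr the median was -0.04, with Per1 and Cdkn1a called higher. Cdkn1a, an inhibitor of cyclin-dependent kinases, had log2FCs of 0.77, 0.45 and 0.67 at 1, 2 and 4 hr and was not called at 4 hr (adjusted p = 0.12). Hif3a (log2FC 1.68 ± 0.41, adjusted p = 0.12) and Nfkbia, the inhibitor of NF-kB (0.53 ± 0.13, adjusted p = 0.12), were also not called. Fkbp5, a co-chaperone of the receptor, had a log2FC of 0.07 ± 0.13 at 4 hr.

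Between 1 and 4 hr 4 of the 34 were higher (0.287% of all genes were) and 1, Per1, was lower (0.426% of all genes). Plin4, a coat protein of lipid droplets, stood at 6.31, 2.35, 4.44 and 2.30 CPM at 0 hr, at 0.569, 1.35, 1.73 and 3.11 CPM at 1 hr, at 3.55, 0.661, 3.64, 3.501 and 5.57 CPM at 2 hr and at 15.1, 7.02, 6.82 and 9.41 CPM at 4 hr. It was counted 2 to 10 times per library at 1 hr and 17 to 41 times at 4 hr. All 4 hr mice were above all mice of the other times, with a log2FC of 2.48 against 1 hr (adjusted p = 0.00023) and of 1.30 ± 0.38 against 0 hr (adjusted p = 0.72), which was not called. Tsc22d3, which encodes the glucocorticoid-induced leucine zipper GILZ, had 40.7 to 76.6 CPM at 1 hr and at least 76.0 CPM at 4 hr (log2FC 0.62, adjusted p = 0.0081). Pnpla2, the adipose triglyceride lipase, and Mertk, a receptor kinase for engulfment, had log2FCs of 0.72 and 0.60 between the same times.

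Over all 35 genes higher at 4 hr than at 1 hr, the median log2FC against 0 hr was -0.31 at 1 hr and 0.19 at 4 hr. Of these genes 34 were below 0 at 1 hr and 34 above 0 at 4 hr, which is a description, since they were chosen by their change between these times, and 5 were called lower at 1 hr and none was called higher at 4 hr (625 genes had an unadjusted p under 0.05 at 4 hr, and DESeq2 called 3). Slc2a1, the glucose transporter of vessels and astrocytes, stood at 60.6 to 81.3 CPM at 1 hr and 90.1 to 124 CPM at 4 hr (log2FC 0.62, adjusted p = 0.00032), against 77.3 to 111 CPM at 0 hr. Zdhhc14, a palmitoyltransferase, was higher than at 1 hr both at 2 hr (0.47, adjusted p = 0.021) and at 4 hr (0.62, adjusted p = 0.00025). Mas1, the receptor of angiotensin-(1-7), stood at 3.97 to 9.92 CPM at 2 hr and 13.2 to 20.2 CPM at 4 hr, without overlap (log2FC 1.16, adjusted p = 0.0062).

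Summed endothelial markers were 272 to 525 CPM at 0 hr and 319 to 479 CPM at 4 hr, with 8 of 10 genes above 0, and summed mural and fibroblast markers 177 to 237 and 214 to 286 CPM, with 8 of 9 tested genes above 0. Summed oligodendrocyte markers were 10077 to 11846 CPM at 0 hr and 10207 to 15356 CPM at 4 hr, with 8 of 10 genes above 0. No gene of these lists was called, and their part in the changes at 4 hr was not tested.

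**Figure D4:**
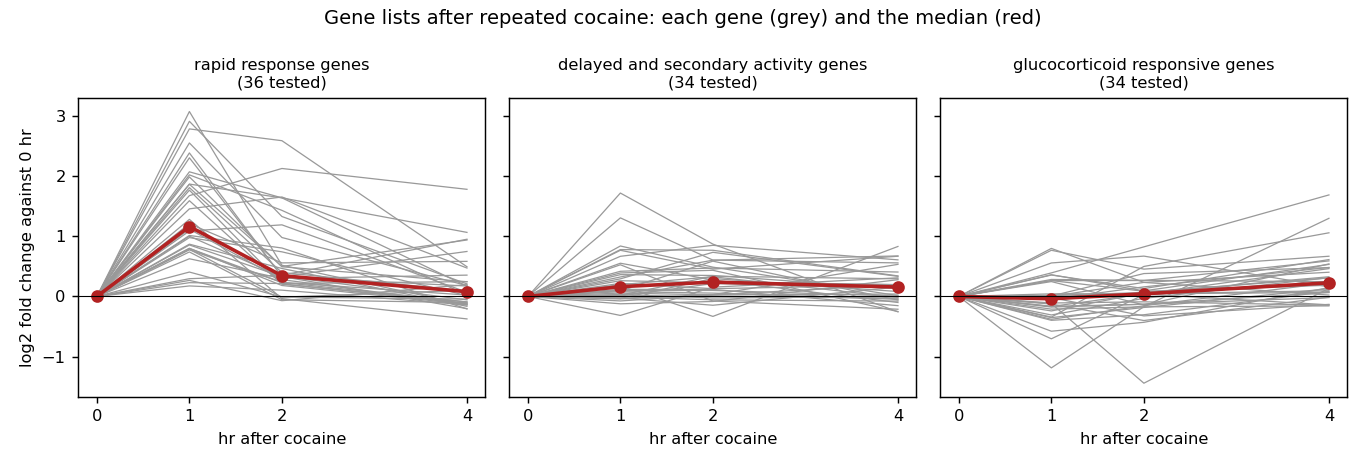
Log2FC against 0 hr at 1, 2 and 4 hr (x axis in hr, to scale) for each tested gene of 3 lists (grey) and the list median (red). The median of the rapid response genes falls from 1.16 at 1 hr to 0.34 and 0.08, and that of the glucocorticoid responsive genes goes from -0.04 to 0.04 and 0.23.

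The remaining lists moved little. At 2 hr 1 of 23 FoxO and fasting responsive genes (Irs2) and 1 of 28 chaperones (Dnajb5) were higher, against 0.18% of all genes. At 4 hr Ddit4 was the single called gene among 20 hypoxia and glycolysis genes and among 17 integrated stress response genes, against 0.0246% of all genes. No gene was called at either time among 21 clock genes, 25 cholesterol genes, 36 genes of TGF-beta, activin and BMP signalling, 46 potassium channel genes, 45 synapse genes and 31 signalling genes of projection neurons. These medians lay between -0.04 and 0.05 at both times.

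Whether the late response of repeated cocaine differed from that of other cocaine experiences was tested in 1 fit of 48 DS libraries that added mice after a single dose (acute, with cocaine-naive mice at 0 hr) and mice given a dose after weeks of abstinence from repeated cocaine (challenge, with abstinent mice at 0 hr). Against acute cocaine 1 gene differed in its 2 hr change (0.00774%) and 1 in its 4 hr change (0.00774%), in both cases Acvr1, which encodes an activin and BMP receptor kinase. Against challenge no gene differed at 2 hr (0%) or at 4 hr (0%), where edgeR gave 473 and 520 genes at an unadjusted p under 0.05 and DESeq2 also called 0. In the 24 libraries of a run that held repeat libraries of all 3 experiences, edgeR also called 0 against challenge, with 981 and 1055 genes at an unadjusted p under 0.05, while DESeq2 called 0 at 2 hr and 3 at 4 hr. DESeq2 called 5 genes in the 2 hr comparison with acute cocaine and 1 in the 4 hr one, and edgeR gave 1169 and 1079 genes at an unadjusted p under 0.05.

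After repeated cocaine Acvr1 stood at 39.0, 50.1, 38.2 and 38.7 CPM at 0 hr, at 31.6, 31.8, 29.3, 31.6 and 31.5 CPM at 2 hr and at 25.0, 29.8, 32.8 and 35.3 CPM at 4 hr. After acute cocaine it stood at 15.8, 24.3, 22.9 and 19.8 CPM at 0 hr, at 24.9, 38.6, 34.4 and 27.1 CPM at 2 hr and at 31.4, 29.4, 31.8 and 37.3 CPM at 4 hr. Levels fell below all 0 hr mice in the first case and lay above all 0 hr mice in the second, and the 4 hr mice of both experiences overlapped. The changes after repeated cocaine alone were log2FCs of -0.41 at 2 hr and -0.42 at 4 hr, neither called, and those after acute cocaine were 0.63 and 0.68. Their difference, repeated minus acute, was -1.05 ± 0.19 at 2 hr (adjusted p = 0.0070) and -1.10 ± 0.19 at 4 hr (adjusted p = 0.0032). The difference at 2 hr was not called without the second 0 hr mouse of repeated cocaine, which had the highest level. The acute libraries of this fit came from another sequencing run and another cohort (exp20) than the repeated ones. The run with repeat libraries held 2 mice per time for each experience. In its 24 libraries Acvr1 stood at 33.1 and 42.7 CPM at 0 hr, 31.1 and 35.3 CPM at 2 hr and 26.6 and 30.1 CPM at 4 hr after repeated cocaine. After acute cocaine it stood there at 46.1 and 33.1 CPM at 0 hr, 36.4 and 41.1 CPM at 2 hr and 48.7 and 45.2 CPM at 4 hr. The 0 hr mice of both experiences overlapped in that run, and the same acute 0 hr mice, the third and the fourth, had 22.9 and 19.8 CPM in the other. The difference in change within the shared run was -0.16 ± 0.40 at 2 hr and -0.68 ± 0.40 at 4 hr, neither called (edgeR, both adjusted p = 1.00). Experience and cohort cannot be told apart.

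The other genes described above were not called as different. The 4 hr change of Polr3e was larger after repeated cocaine by 0.64 than after acute cocaine (95% interval 0.25 to 1.02, adjusted p = 0.29) and by 0.65 than after challenge (0.24 to 1.06, adjusted p = 1.00). For Sgk1 the differences were 0.40 (-0.07 to 0.87) and 0.65 (0.17 to 1.14), and for Ddit4 0.37 (0.04 to 0.70) and 0.58 (0.23 to 0.92). Polr3e, Sgk1 and Ddit4 were chosen by their 4 hr change in the same repeated libraries, which favours a larger change there. Their intervals, not adjusted for the number of genes, are a description. The 2 hr change of Dusp14 was 1.19 after repeated, 1.30 after acute and 0.86 after challenge cocaine. The changes of repeated cocaine alone were also read from this fit, a choice made after the data were seen, and gave 11 higher and 1 lower genes at 2 hr and none at 4 hr (edgeR, with 671 genes at an unadjusted p under 0.05; the smaller fit had 3 calls by either tool). The same fit gave 137 higher and 166 lower genes at 2 hr and 91 and 100 at 4 hr after acute cocaine, and 38 and 0 at 2 hr and 7 and 1 at 4 hr after challenge.

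**Figure D5:**
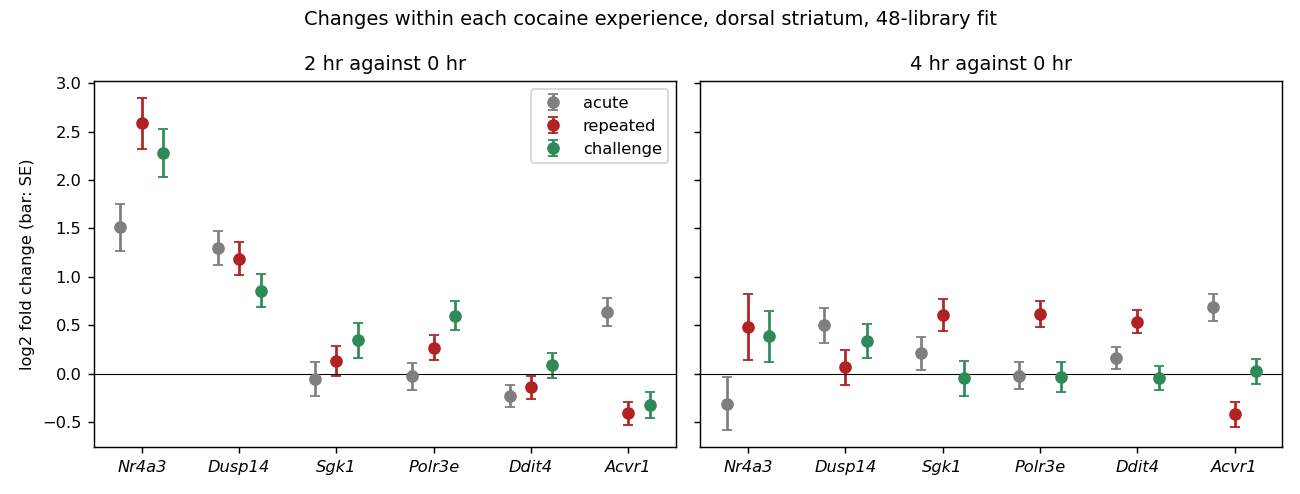
Log2FC against 0 hr at 2 hr (left) and 4 hr (right) within acute, repeated and challenge cocaine, with SE, for 6 genes of the 48-library fit. Acvr1 lies above 0 after acute and below 0 after repeated cocaine at both times. Sgk1, Polr3e and Ddit4, which were chosen by their 4 hr change after repeated cocaine, lie highest there at 4 hr.

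The same treatment was sampled in the nucleus accumbens (NAc), amygdala (Amy) and lateral hypothalamus (LH), with 2 mice per time point, all of exp17 and under the same animal numbers as the exp17 DS mice. At 4 hr no gene was called in the Amy (0%) or the NAc (0%), where edgeR gave 511 and 743 genes at an unadjusted p under 0.05 and DESeq2 called 0. In the LH 2 genes were called (0.0157%), Sgk1 and Polr3e, and DESeq2 called 0. Sgk1 in the LH stood at 173 and 61.0 CPM at 0 hr and at 218 and 295 CPM at 4 hr (log2FC 1.09 ± 0.19, adjusted p = 0.0068). The low 0 hr mouse has the animal number of the fourth 0 hr mouse of the DS, and Sgk1 was also low under that number in the NAc, at 63.6 against 128 CPM, and in the Amy, at 39.4 against 71.7 CPM. Without that mouse Sgk1 was not called in the LH (log2FC 0.57 ± 0.14, adjusted p = 0.31), nor without the second 4 hr mouse (adjusted p = 0.22). Polr3e in the LH stood at 46.9 and 60.2 CPM at 0 hr and at 96.9 and 96.3 CPM at 4 hr (log2FC 0.87 ± 0.15, adjusted p = 0.0068), and its call was lost without the first 0 hr mouse (adjusted p = 0.39). In these fits, chosen after the data were seen, a lone mouse is assumed to vary like the other groups. In the NAc Polr3e stood at 35.4 and 33.7 CPM at 0 hr and at 62.8 and 65.0 CPM at 4 hr, with a log2FC of 0.89 ± 0.15 that did not pass (adjusted p = 0.077), and in the Amy its log2FC was 0.39 ± 0.17. Ddit4 had log2FCs of 0.29, 0.52 and 0.51 in the NAc, Amy and LH, none of them called. Plin4 was higher at 4 hr than at 1 hr in each of the 3 structures, with log2FCs of 3.27 (NAc), 2.46 (Amy) and 1.88 (LH) and adjusted p of 0.013, 0.012 and 0.0081. Tsc22d3 was higher in the Amy and LH, with log2FCs of 0.90 and 0.58. DESeq2 called Plin4 in the NAc (adjusted p = 0.012) but not in the Amy (0.059) or LH (1.00), and Tsc22d3 in the Amy (0.028) but not in the LH (0.30). The matching animal numbers may mark the same mice, so these values are not counted as an independent repeat of those in the DS.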

How the data were processed

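Counts of 3′-RNA-seq reads from single mice were analysed. The authors deposited whole-number counts per gene and library, not normalized, after aligning to GRCm38 with STAR and counting with HTSeq, with reads collapsed by unique molecular identifier (versions were not given in the sources used here). Of 19363 genes in the table, 197 had only zeros. Groups, cohort, run and mouse came from the labels, and 8 repeat libraries (1689860 to 2170571 counts) were set aside. The 17 libraries at 0, 1, 2 and 4 hr entered a joint edgeR 4.0.16 model (R 4.3.3) with time and cohort as terms, after filterByExpr on time groups and TMM scaling, and contrasts were tested by quasi-likelihood F tests. Differences between experiences were interaction contrasts over 48 DS libraries (12918 genes), and each other structure was fitted alone. CPM were computed from TMM-scaled library sizes. DESeq2 1.42.0 was an alternative, as were RLE scaling, no filter, no cohort term, the replicate number as a block, each cohort alone, summed repeat libraries, a fold over 1.5, no 1 hr mice and leaving out each mouse. The 24 DS libraries of the run that held all 3 experiences were fitted alone, without a cohort term, as an alternative chosen after the data were seen. Plots used matplotlib 3.10.9.

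Genes named were those called at 2 or 4 hr (the 15 largest increases and 10 largest decreases with a mean of at least 10 counts in the higher group), the largest interactions, and called or textbook members of described lists. Peli1, Tlnrd1, Pdp1, Shisa2, Sik2, Pfkfb3, Htr1b, Slc2a1, Zdhhc14 and Mas1 were named after their values were seen. Genes, lists and tests were chosen with earlier results of these data known. No pair of libraries of 1 group differed by less than sampling noise. P-values measure the spread between these mice. Near-identical paralogs and overlapping genes may share reads. Some results, among them the gene called lower at 2 hr, are not reported here.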

Additional observations from a re-analysis of the deposited data

Results flagged for a closer look

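In 5 of 108 groups of mice looked at (the 26 genes called at 2 or 4 hr and Acvr1, at 4 times each), 1 mouse lay farther from its nearest neighbour than Dixon's 95% value allows, and chance marks about 1 in 20 groups. The fifth 2 hr mouse was low for Dusp14, at 135 CPM with the next at 233 CPM, and high for Polr3e, at 80.8 CPM with the next at 58.2 CPM. The first 0 hr mouse was low for Rnd3, at 10.7 CPM with the next at 15.5 CPM. For Acvr1, on the scaling of the 17 libraries alone, which gives CPM slightly above those of the 48-library fit, the second 0 hr mouse was high, at 50.4 CPM with the next at 39.6 CPM, and the third 2 hr mouse was low, at 29.5 CPM with the next at 31.9 CPM.

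The change of Acvr1 differed between repeated and acute cocaine, with differences in log2FC of -1.05 at 2 hr and -1.10 at 4 hr in the interaction test. In the 24 repeat libraries of the shared run it was -0.16 and -0.68 and was not called.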

How the results depend on the processing

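No gene called at 2 or 4 hr changed sign under any alternative, but every alternative used mice from which these genes were called. Of the 26 genes, 22 lost the call in exp17 alone, 14 in the fit of 48 libraries and 13 without the cohort term. DESeq2 called 14 genes at 2 hr and 5 in the 2 hr difference from acute cocaine. Without the filter on low counts there were 47 calls at 2 hr, 11 at 4 hr, 50 between 1 and 2 hr, 48 between 2 and 4 hr and 36 late genes, and the differences from acute cocaine gave 104 (2 hr) and 90 (4 hr) and those from challenge 1 and 2. Without the cohort term there were 13 calls at 2 hr, 0 at 4 hr, 30 at 1 hr, 17 between 1 and 2 hr, 38 between 1 and 4 hr, 13 between 2 and 4 hr and 4 late genes. Exp16 alone gave 12 calls at 4 hr, 26 at 1 hr and 29 late genes, and exp17 alone 4 at 2 hr, 0 at 4 hr, 36 between 1 and 4 hr, 6 between 2 and 4 hr and 0 late genes. A fold over 1.5 left 21 calls between 1 and 2 hr, 54 between 1 and 4 hr and 8 late genes. Read from the fit of 48 libraries, a use chosen after seeing the data, repeated cocaine gave 12 calls at 2 hr and 0 at 4 hr. The 24 libraries of the shared run, added in the same way, gave 0 calls for the differences from acute cocaine at 2 and 4 hr (edgeR, with 410 and 392 genes at an unadjusted p under 0.05, and DESeq2 also called 0), and against challenge edgeR called 0 and DESeq2 0 and 3. The cause was not tested.

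Replicate numbers were not taken to pair the mice, since not every same-numbered pair correlated above 0.1: deviations correlated at 0.15 to 0.29 between 0 and 2 hr in the pairs of 1 cohort, at -0.15 in the third pair, which joined mice of both cohorts, and at 0.03 to 0.24 between 0 and 4 hr. With the replicate block there were 34 calls at 2 hr, 3 at 4 hr, 21 between 1 and 2 hr, 43 between 2 and 4 hr and 25 late genes. Leaving out each mouse in turn gave 11 to 42 calls at 2 hr, 0 to 3 at 4 hr, 38 to 51 at 1 hr, 20 to 39 between 1 and 2 hr, 52 to 112 between 1 and 4 hr, 15 to 44 between 2 and 4 hr and 4 to 35 late genes. The differences from acute cocaine then gave 0 to 3 (2 hr) and 1 to 2 (4 hr), and those from challenge 0. Of the 26 genes called, Dusp14, Egr4, Fosb and Nr4a3 kept the call in all 11 alternatives other than leaving out a mouse, Klf4 in 4, Ddit4 in 5, Polr3e in 6 and Sgk1 in 7. Late genes could not be counted without the 1 hr mice. Depths of 2460920 to 4011041 counts leave genes such as Klf4 and Plin4 at few counts per library.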
